A study of Rattus norvegicus with 9 samples.

Results

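Callus fibroblasts, the collagen-rich connective tissue cells of the healing osteotomy site, were 705 of 114232 cells kept (0.617%) out of 116711 barcodes. A barcode was kept with at least 200 detected genes and at most 20% mitochondrial UMIs (unique molecular identifiers, 1 per captured transcript). A kept cell was counted as a callus fibroblast with at least 3000 UMIs, at least 50 Col1a1 and at least 30 Col3a1 UMIs per 10000, fewer than 50 Bglap UMIs per 10000, at most 1 Rgs5 UMI and 0 Cdh5 UMIs. Bglap (osteocalcin) marks osteoblasts, Rgs5 pericytes and Cdh5 endothelial cells. The members were thus selected on total UMIs and on these 5 genes, whose values are given only as a description.

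All rats were male Sprague-Dawley animals aged 6 to 8 weeks with a trephine osteotomy of the proximal tibia and a skin wound on the dorsal foot, per the methods of the study. The TO libraries came from the osteotomy site without shock waves, and the TOE libraries from sites that received radial extracorporeal shock waves through the skin (3 bar, 300 impulses, 5 Hz) on day 2 and, in the libraries of day 4, on day 4 as well. A library is named by arm, day after injury and hours after the session, so that TOE_4d_4h was collected 4 h after the session of day 4. The libraries analysed here were TO_2d_0h, TO_2d_4h, TO_4d_4h, TO_4d_24h, TOE_2d_4h, TOE_2d_24h, TOE_4d_4h and TOE_4d_24h, with 1 library per condition, and the number of rats behind a library is not stated in the sources used here. TO_2d_24h was not analysed here.

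Fibroblasts lay down the fibrillar collagens and proteoglycans of granulation tissue and soft callus, and at a fracture they can derive from periosteum, marrow stroma or surrounding soft tissue. During repair they can take up smooth muscle actin and contract the matrix as myofibroblasts, and cells of the periosteal lineage can go on to form cartilage or bone. They also release chemokines, growth factors and extracellular vesicles, and the study asked which cells of the osteotomy site might supply small vesicles after shock waves.

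With 1 library per condition no difference between conditions could be tested, and there is no replicate check on any of them. A level is in CPM (counts per 1e6 UMIs), taken after adding up the UMIs of all callus fibroblasts of a library, and the intervals are 95% exact intervals that cover counting error only. The counts come from the 3′ ends of transcripts and do not scale with transcript length. The libraries held 95954800 to 144146202 UMIs, and the callus fibroblasts in them 143482 to 16462678 UMIs. Callus fibroblasts were deeply covered cells, with a median of 35148 UMIs and 6317 genes per cell against 5003 UMIs and 2091 genes over all cells kept. Of the 115096 distinct barcodes 1601 occurred in 2 or more libraries, which included the barcodes of 17 callus fibroblasts, but 0 were shared between callus fibroblasts of different libraries. The doublet score reached 0.25 in 2 of the 705 cells (0.284%), against 3.28% of all cells kept. A UMI of Ptprc, the pan-leukocyte antigen, was present in 399 of the 705 cells, and in 114 of them with 3 or more UMIs.

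The callus fibroblasts numbered 43 in TO_2d_0h (0.296% of cells kept, 0.215 to 0.399), 19 in TO_2d_4h (0.124%, 0.0747 to 0.194), 127 in TO_4d_4h (0.997%, 0.832 to 1.19) and 3 in TO_4d_24h (0.0213%, 0.00439 to 0.0621). In the shock wave arm they numbered 15 in TOE_2d_4h (0.0885%, 0.0496 to 0.146), 355 in TOE_2d_24h (2.46%, 2.21 to 2.73), 113 in TOE_4d_4h (0.815%, 0.673 to 0.98) and 30 in TOE_4d_24h (0.243%, 0.164 to 0.347). TOE_2d_24h, which has no matched TO library here, thus held 50.4% of all callus fibroblasts, and TO_4d_24h next to none. The share of TOE over that of TO was 0.714 at 2d 4h (0.337 to 1.48), 0.818 at 4d 4h (0.629 to 1.06) and 11.4 at 4d 24h (3.56 to 58.6). The last ratio rests on the 3 cells of TO_4d_24h, whose levels are therefore given as values and enter no count of genes. Without TOE_2d_24h the callus fibroblasts were 350 of 99797 cells kept (0.351%).

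**Figure D1:**
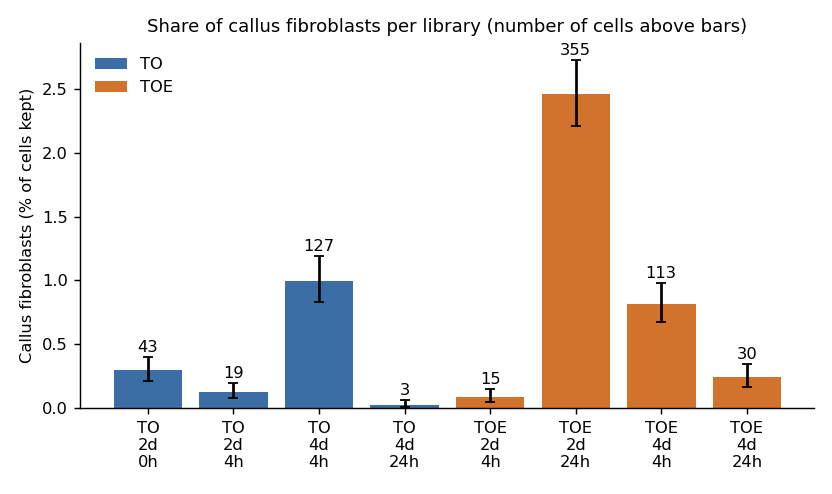
Callus fibroblasts as a percentage of the cells kept in each of the 8 libraries, TO in blue and TOE in orange. Bars are shares, lines are 95% Clopper-Pearson intervals of counting error, and the number above each bar is the number of cells. TOE_2d_24h (2.46%) stands above all others and TO_4d_24h (0.0213%) lies lowest.

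Within 20% of a limit lay 27 callus fibroblasts for Col3a1, 7 for Col1a1, 3 for total UMIs and 0 for Bglap. The Col1a1 level of callus fibroblasts had a median of 209 per 10000 (50 to 1519), that of Col3a1 86.3 (30.4 to 423) and that of Bglap 0.494 (0 to 40.5), and 235 cells had 0 Bglap UMIs. Among cells that met every other criterion, the nearest outside had 45.9 Col1a1 UMIs per 10000, 29.6 Col3a1 UMIs per 10000, 66.1 Bglap UMIs per 10000 or 2978 UMIs in total, and the nearest inside 50, 30.4, 40.5 and 3076. The minimum of total UMIs alone left out 208 cells, Col3a1 196, Bglap 16, Rgs5 16, Cdh5 15 and Col1a1 7. No other minimum of Col3a1 was tried.

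The label was checked against markers of fibroblasts and of the other cells that such tissue can hold. Beside Col1a1 and Col3a1, which chose the cells, the 7 fibroblast markers Col12a1, Lum, Col5a1, Tagln, Thy1, Pdgfra and Dcn were all at least 2-fold above the other cells kept, as were 19.8% of the 24066 genes with at least 20 UMIs, while 37% of those were at least 2-fold lower. Their summed level was 7276 against 223 CPM, and ranged from 5195 to 10761 CPM over the libraries. Against the cells most like them, some of these markers were lower, with Dcn at 584 CPM against 1571 CPM in osteoblasts, Pdgfra at 53.3 against 66.8 CPM in osteoblasts and Tagln at 1599 against 2551 CPM in pericytes. Skeletal muscle markers summed to 0.43 CPM (3 of 5 at 0), and the 4 endothelial markers other than Cdh5 to 10.4 CPM against 65.1 CPM in the other cells. The 5 pericyte and smooth muscle markers other than Rgs5 summed to 53.3 CPM, against 11.7 CPM in the other cells and 1147 CPM in the 79 cells taken as pericytes. The 6 osteoblast markers other than Bglap, which the selection limits, summed to 2207 CPM against 144 CPM in the other cells, with 4 of 6 at least 2-fold higher, and to 6418 CPM in osteoblasts. They ranged from 91.4 CPM in TO_4d_4h to 7471 CPM in TO_4d_24h, so that osteoblast marker RNA was present in cells that met the rule. The 10 leukocyte markers summed to 3093 CPM (1345 to 5031 over the libraries) against 38238 CPM in the other cells, and the 5 erythroid markers to 993 CPM (7.38 to 6594) against 10651 CPM. Chondrocyte markers summed to 247 CPM (70.9 to 859) against 4.89 CPM in the other cells, marrow reticular markers to 198 against 22.2 CPM, tendon markers to 74.1 CPM, synovial markers to 62.4 CPM, adipocyte markers to 23.6 CPM and Schwann cell markers to 18.2 CPM. The part of the leukocyte and erythroid RNA in the results was not tested. Col1a1 UMIs were also found in B cells, at 0.424 to 10.8 per 10000, the highest in TOE_2d_24h. B cells should lack this gene, and free collagen RNA in the suspensions was not measured otherwise.

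By level, the matrix led. After the collagens that chose the cells, Col1a1 at 22746 CPM and Col3a1 at 9476 CPM, the most abundant genes with a matrix or cytoskeletal role included Col1a2 (13938 CPM, the partner chain of type I collagen), Sparc (8113 CPM, a collagen-binding glycoprotein), Vim (6541 CPM, the intermediate filament of mesenchymal cells) and Lgals1 (4146 CPM, a galectin). The genes most raised over the other cells kept, among genes seen in at least 25% of callus fibroblasts, were C1qtnf3 (267-fold), Postn (249-fold, periostin of periosteum and healing connective tissue), Tnn (214-fold, a tenascin), Epha3 (192-fold, an ephrin receptor), Dpt (188-fold, dermatopontin) and Thbs2 (182-fold, thrombospondin 2). Postn stood at 947 CPM against 3.8 CPM in the other cells and Tnn at 973 against 4.55 CPM. Prrx1, a transcription factor of limb mesenchyme, had 518 against 7.47 CPM. Thy1, a surface marker of mesenchymal cells that is not confined to them, had 342 against 127 CPM, 22.2 CPM in osteoblasts and 1685 CPM in pericytes. Lrrc15, a membrane protein of activated fibroblasts, had 193 against 1.24 CPM and 88.5% of callus fibroblasts had a UMI of it.

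Against osteoblasts, taken as the 315 cells with at least 50 Bglap UMIs per 10000 that met the limits on total UMIs, Col1a1, Rgs5 and Cdh5, callus fibroblasts differed in collagen type. Type I collagen chains were lower, with Col1a2 at 13938 against 64401 CPM, and of 11 fibrillar collagens, these included, 5 were at least 2-fold lower and 4 at least 2-fold higher. Col11a1 was 832 against 5014 CPM and Col11a2 14.5 against 1440 CPM. The 13 of 14 non-fibrillar collagens with at least 20 UMIs were each at least 2-fold higher, with a summed level of 4878 against 416 CPM. In pericytes that list summed to 8825 CPM, above callus fibroblasts. Over the 15833 genes with at least 20 UMIs, 25% were at least 2-fold higher than in osteoblasts and 6.02% at least 2-fold lower. Col12a1, a collagen of fibril surfaces, was 1537 against 134 CPM, Col6a3, of the beaded microfibrils around cells, 819 against 72 CPM, and each was above the osteoblasts of the same library in 7 of the 7 libraries with at least 10 callus fibroblasts. Asporin (Aspn), a small leucine-rich proteoglycan, was 478 against 10.9 CPM and lumican (Lum) 1609 against 675 CPM. Of 16 contractile genes 13 were at least 2-fold higher (summed level 6430 against 1561 CPM, and 10332 CPM in pericytes). Of 13 bone formation genes 8 were at least 2-fold lower (3718 against 11611 CPM, and 673 CPM in pericytes). Bglap and Col3a1 separate callus fibroblasts from osteoblasts by definition, so these differences are a description and were not tested.

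The vesicle markers were read for the study's question. Cd63, a tetraspanin of late endosomes and exosomes, was at 1752 CPM in callus fibroblasts, 320 CPM in the other cells kept, 2292 CPM in osteoblasts and 1450 CPM in pericytes. Cd9 was 294 against 68.2 CPM in the other cells and Cd81 434 against 166 CPM, while Tsg101 (55.3 against 68), Flot1 (41.4 against 93.6), Flot2 (21.3 against 64.8) and Rab27a (9.84 against 81.4), which serve vesicle sorting and docking, were lower than in the other cells. When each cell was thinned to 3000 UMIs, Cd63 was seen in 94.6% of callus fibroblasts (99.9% unthinned) against 14% of B cells, whose median depth was 5766 UMIs against 35148 UMIs.

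Per library, Cd63 was 2151 CPM in TO_2d_0h, 1132 in TO_2d_4h, 870 in TO_4d_4h, 3136 in TO_4d_24h, 1463 in TOE_2d_4h, 1989 in TOE_2d_24h, 1515 in TOE_4d_4h and 2061 in TOE_4d_24h. It was lowest in the 4 h libraries of both arms, and higher in TOE than in TO at 4 h, by 1.29-fold at 2d (1.15 to 1.45) and 1.74-fold at 4d (1.67 to 1.82). Within sub-cluster 1 of the clustering described below, Cd63 at 4d 4h was 735 CPM in TO and 992 CPM in TOE. That sub-cluster had the lowest Cd63 of the 7, at 1028 CPM. It held 85.8% of the cells of TO_4d_4h and 23.9% of those of TOE_4d_4h. Of the 7 vesicle markers 0 of 7 measured were 2-fold apart at 4d 4h, with a median log2 ratio of TOE over TO of 0.34 against 0.06 over all genes, of which 5.48% were at least 2-fold higher and 5.45% lower. At 2d 4h 1 of 5 measured was higher (9.68% of all genes) and 0 lower (8.06%), with a median of 0.03 against 0.05.

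Smpd3, which encodes neutral sphingomyelinase 2, an enzyme of bone mineralization and of ceramide-dependent vesicle budding, was 61.7 CPM in callus fibroblasts and 435 CPM in osteoblasts. It was 94.6 CPM in TOE_2d_24h (98 of 355 cells) and 33 CPM in TOE_4d_4h (14 of 113 cells), against 1.12 CPM in TO_4d_4h (2 of 127 cells) and 1.48 CPM in TOE_4d_24h (1 of 30 cells). The values of TO_2d_0h (12.1 CPM), TO_2d_4h (11.4 CPM) and TO_4d_24h (146 CPM, all in 1 cell) rest on 4, 2 and 1 cells. No UMI was found in TOE_2d_4h, which allows up to 8.01 CPM. In the clustering described below, Smpd3 was 393 CPM in the osteoblast-like sub-cluster 2, of which it is a leading gene. It was 1.19 to 10.8 CPM in the other sub-clusters.

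The study followed a few proteins in vesicles from plasma, and reported Thbs1 protein higher in TOE there. The levels here are RNA of cells of the osteotomy site, a different measure in other material. Among the genes of those proteins, Thbs1 (thrombospondin 1, a matricellular protein) was raised over the other cells, at 313 against 29.2 CPM. It was 254 CPM in TO_2d_0h, 672 in TO_2d_4h, 641 in TO_4d_4h, 160 in TO_4d_24h, 547 in TOE_2d_4h, 246 in TOE_2d_24h, 219 in TOE_4d_4h and 22.1 in TOE_4d_24h. A single cell held 69.3% of the UMIs of TO_2d_4h, without which the level there was 224 CPM. At 4d 4h Thbs1 was 2.93-fold lower in TOE (2.7 to 3.19), and 667 CPM in TO and 393 CPM in TOE within sub-cluster 1 of the clustering described next, while in the other cells kept it was 17 and 33.7 CPM. At 2d 4h the order of the libraries turned on that cell, and the log2 ratio ranged from −0.43 to 1.67 over the processing alternatives. Lcp1, an actin bundler of leukocytes, was 31.9 against 412 CPM in the other cells, Cdc42 578 against 721 CPM, Hspd1 255 against 276 CPM and Ilk, the integrin-linked kinase, 143 against 72.3 CPM. P2rx7, an ATP receptor that the study examined, was at 0.501 CPM.

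To see how callus fibroblasts varied among themselves they were clustered, which gave 7 sub-clusters. The leading genes of a sub-cluster are a description, since they made it. Sub-cluster 1 (165 cells) was led by Meg3, Col14a1, Zfpm2, Has1, Igf1 and Dpt, with Igf1 at 1420 CPM and Ibsp at 4.41 CPM. Sub-cluster 2 (88 cells), led by Smpd3, Ifitm5, Panx3, Phospho1 and Ibsp, raised all 7 osteoblast markers at least 2-fold over the other callus fibroblasts, Bglap included, against 4.66% of all genes with at least 10 UMIs in it, and was osteoblast-like, with Ibsp at 8309 CPM and Igf1 at 8.95 CPM. Sub-cluster 3 (92 cells) was led by Ostn, Edil3, Hapln1, Ucma and Foxp2 and raised 4 of 5 chondrocyte markers, against 6.53% of all genes, with Acan at 908 CPM. Bglap limits the selection, and Ibsp, Ifitm5 and Hapln1 are leading genes, so both marker counts are a description and no independent check.

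Sub-cluster 4 (174 cells) was led by Actg2, Acta2 and Ndnf, with Acta2 at 559 CPM and Tagln at 2942 CPM. Sub-cluster 5 (78 cells) was led by the mitotic genes Ube2c, Nusap1, Cenpf and Ccnb1, with Top2a at 349 CPM. Sub-cluster 6 (81 cells) was led by haemoglobin genes together with Mmp13 and Spp1. Sub-cluster 7 (27 cells) was led by RatNP-3b, Acp5, Camp and S100a9, genes of neutrophils and osteoclasts, and 24 of its 27 cells had a Ptprc UMI. The part of erythroid and leukocyte RNA in the last 2 sub-clusters was not tested.

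The libraries drew on different sub-clusters. Sub-cluster 1, with Igf1 and Col14a1, took 109 of 127 cells (85.8%) in TO_4d_4h, 19 of 43 (44.2%) in TO_2d_0h, 27 of 113 (23.9%) in TOE_4d_4h, 5 of 15 (33.3%) in TOE_2d_4h, 2 of 19 (10.5%) in TO_2d_4h, 3 of 355 (0.845%) in TOE_2d_24h and 0 of 30 in TOE_4d_24h. Sub-cluster 3, with Ostn and Foxp2, took 22 of 30 cells (73.3%) in TOE_4d_24h, 31 of 113 (27.4%) in TOE_4d_4h and 4 of 15 (26.7%) in TOE_2d_4h. In TO it took 8 of 19 (42.1%) in TO_2d_4h, 9 of 43 (20.9%) in TO_2d_0h and 2 of 127 (1.57%) in TO_4d_4h. It took 16 of 355 (4.51%) in TOE_2d_24h and 0 cells in TO_4d_24h. The Acta2 sub-cluster 4 took 154 of 355 cells (43.4%) in TOE_2d_24h, which supplied 154 of its 174 cells. The osteoblast-like sub-cluster 2 took 69 of 355 cells (19.4%) in TOE_2d_24h, 4 of 30 (13.3%) in TOE_4d_24h and 10 of 113 (8.85%) in TOE_4d_4h. In TO it took 4 of 43 (9.3%) in TO_2d_0h and 1 of 3 in TO_4d_24h. It had 0 cells in TO_2d_4h, TO_4d_4h and TOE_2d_4h, so it was found in both arms. With 1 library per condition, a sub-cluster that comes mostly from 1 library cannot be told apart from that library.

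**Figure D2:**
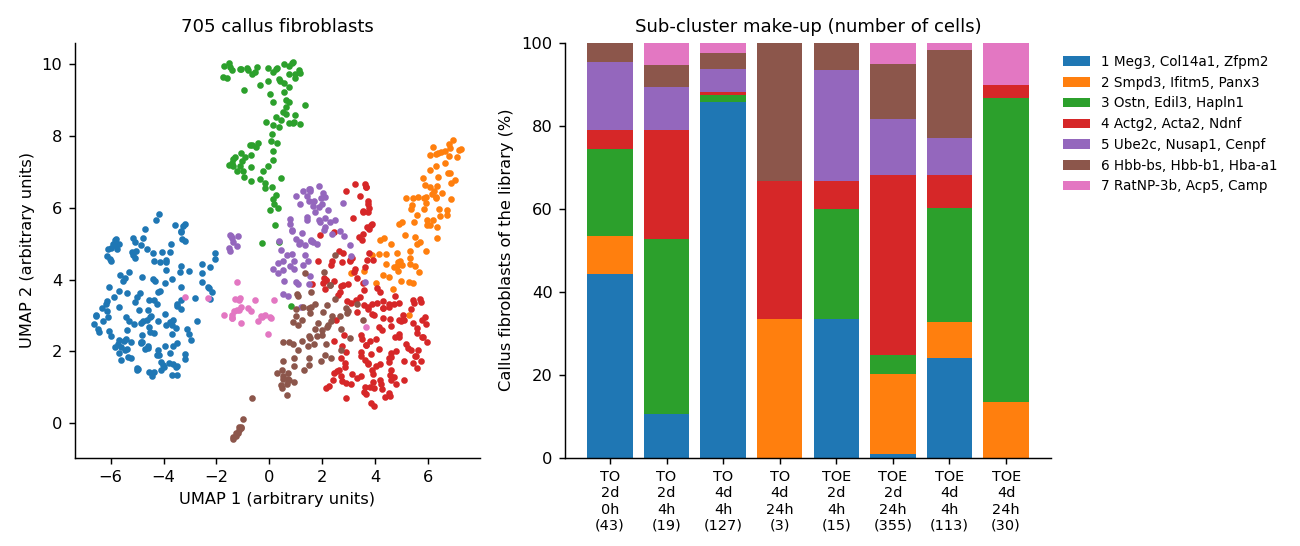
Left, the 705 callus fibroblasts in a UMAP embedding (axes in arbitrary units), 1 point per cell, coloured by sub-cluster and named by number and leading genes. Right, the percentage of each library's callus fibroblasts in each sub-cluster, with the number of cells under each bar. Sub-cluster 1 fills 85.8% of TO_4d_4h, sub-cluster 3 fills 73.3% of TOE_4d_24h, and sub-cluster 4 fills 43.4% of TOE_2d_24h.

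Igf1, the insulin-like growth factor, and Ibsp, bone sialoprotein of mineralizing matrix, were largely found in different cells. After thinning to 3000 UMIs, 173 cells had an Igf1 UMI and 303 an Ibsp UMI, and 14 had both. Ibsp was thus seen in 8.09% of the cells with Igf1 and in 54.3% of the cells without it. Igf1 was seen together with Col14a1 (53.8% of cells with Igf1 against 4.32% of the rest), and Ibsp together with Alpl, the alkaline phosphatase of bone-forming cells (68% against 18.9%). In TO_4d_4h, which held 93 of the 173 cells with Igf1, the shares for Col14a1 were 68.8% and 29.4%.

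The same held in the largest libraries taken singly. In TO_4d_4h, 93 cells had Igf1, 5 had Ibsp and 0 had both, and in TOE_4d_4h 32, 43 and 2 cells. In TOE_2d_24h, 16 cells had Igf1, 201 had Ibsp and 3 had both. In TO_2d_0h and TOE_4d_24h the separation was weaker, since 6 of the 16 and 3 of the 6 cells with Igf1 also had Ibsp. In B cells the thinned share was 0.625% for Igf1 and 2.78% for Ibsp.

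**Figure D3:**
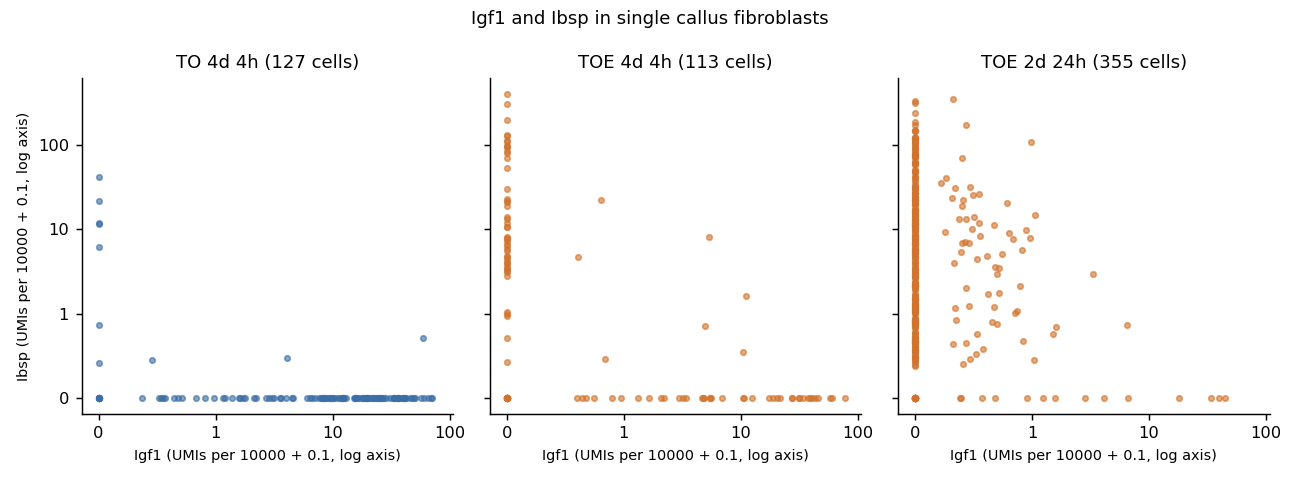
Igf1 against Ibsp in single callus fibroblasts of TO_4d_4h (127 cells), TOE_4d_4h (113 cells) and TOE_2d_24h (355 cells), both axes in unthinned UMIs per 10000 plus 0.1 on a log scale. Most cells lie along 1 of the axes. In TO_4d_4h they line the Igf1 axis, in TOE_2d_24h the Ibsp axis, and in TOE_4d_4h both.

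At 4d 4h, the pair with the most cells (127 in TO and 113 in TOE), 12164 genes had at least 20 UMIs, of which 5.48% were at least 2-fold higher in TOE and 5.45% at least 2-fold lower. Of 13 bone formation genes 11 had enough UMIs, and these 11 were at least 2-fold higher in TOE, with a median log2 ratio of 2.93 against 0.06 over all genes. Cytokines and chemokines had 2 of 15 higher and 6 of 15 lower (median −0.87), and growth factors and receptors 4 of 22 higher and 5 of 22 lower (median −0.44). Of 20 collagen processing genes 0 were 2-fold apart in either direction, and of 18 cell cycle genes likewise 0. All 5 erythroid markers were at least 2-fold higher in TOE as well (median 1.62, summed level 762 CPM in TO and 2029 CPM in TOE), and of 7 measured leukocyte markers 1 was (median −0.22), and their part in these values was not tested.

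Ibsp was 61.7 CPM in TO_4d_4h (10 of 127 cells) and 1735 CPM in TOE_4d_4h (55 of 113 cells), 28.1-fold apart (24.9 to 31.8). Over the other libraries it was 2479 CPM in TO_2d_0h, 1614 in TO_2d_4h, 6203 in TO_4d_24h, 230 in TOE_2d_4h, 2122 in TOE_2d_24h and 1722 in TOE_4d_24h. TO_4d_4h was thus the low library of the series for Ibsp, next to TOE_2d_4h, while TOE_4d_4h lay among the rest.

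Alkaline phosphatase (Alpl) followed the same order, at 19.1 CPM in TO_4d_4h and 348 CPM in TOE_4d_4h, 18.2-fold apart (14.6 to 23), and 74.8 to 955 CPM in the other libraries. Osterix (Sp7), a transcription factor of the osteoblast lineage, was 3.37 and 35.2 CPM and Dlx5, another, 1.8 and 26.2 CPM. Runx2, which precedes Sp7 in that lineage, was 192 and 404 CPM, 2.11-fold apart (1.93 to 2.3), and unlike Ibsp it was detected in most cells of both libraries (111 of 127 and 102 of 113). The parathyroid hormone receptor Pth1r was 26.5 and 124 CPM.

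Cartilage genes were uneven. Acan, the proteoglycan of cartilage, was 69.6 CPM in TO_4d_4h and 467 CPM in TOE_4d_4h, 6.71-fold apart (5.94 to 7.61), and Sox6 was 2.92 and 70.1 CPM. Sox9, the master transcription factor of cartilage, was 105 and 85.2 CPM. Mgp, an inhibitor of calcification, was 163 and 1231 CPM, and 22.4% of its UMIs in TOE_4d_4h came from 1 cell. Osteomodulin (Omd) was 0.898 and 23.8 CPM, and Tnfrsf19 was at 0 in TO and 16.4 CPM in TOE, at least 24.3-fold higher against a floor of 3 UMIs in the library.

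Secreted signals differed in both directions, and those of high level in TO_4d_4h were among the lower ones. Igf1 was 1440 CPM in TO_4d_4h (113 of 127 cells) and 539 CPM in TOE_4d_4h (47 of 113 cells), 2.67-fold lower (2.53 to 2.82), and the other libraries lay between 6.97 and 601 CPM. Il33, an alarmin, was 566 and 107 CPM, 5.29-fold lower (4.72 to 5.93). The neutrophil attractant Cxcl1 was 1279 and 339 CPM, 3.77-fold lower (3.54 to 4.03), and Tnfaip6, a hyaluronan-binding protein induced by inflammation, 891 and 237 CPM.

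Fgf7, a growth factor for epithelia, was 225 and 79.6 CPM, Hgf 19.3 and 2.16 CPM, and Cxcl12, a chemokine of marrow stroma, 89.8 and 21.3 CPM. Cxcl13, which attracts B cells, was 94.5 CPM in TO_4d_4h (52 of 127 cells) and 2.16 CPM in TOE_4d_4h (6 of 113 cells), and at most 40 CPM in any other library. Inhba, the activin A subunit, went the other way, at 60.8 and 346 CPM, and was 870 CPM in TOE_2d_4h against 73.8 CPM in TO_2d_4h. Also higher in TOE were Igf2, at 13.7 and 107 CPM with 78.7% of the TO UMIs in 1 cell, Fgf2, at 2.92 and 9.57 CPM, and Il11, at 0.674 and 13 CPM with 66.7% of the TOE UMIs in 1 cell. Ccl2 was 601 and 437 CPM and Ccl7 126 and 71.6 CPM.

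In the matrix, Tnc (tenascin C) was 1720 CPM in TO_4d_4h and 660 CPM in TOE_4d_4h, Col14a1 462 and 83.3 CPM, and Clec3b (tetranectin) 85.1 and 4.32 CPM. The remaining genes with the largest ratios were Ptgis, Cilp2, Fhip1a and Dpp6, all higher in TOE, and Tnnt2, Prrg4, Nrk, Rspo2, Kif26b and Samd9, all lower. Higher in TOE were the minor fibrillar collagen Col11a1, at 445 and 1284 CPM, fibromodulin (Fmod), at 83.3 and 298 CPM, elastin (Eln), at 37.5 and 135 CPM, and Thbs4, at 34.4 and 142 CPM, while Tgfbi was 1018 and 463 CPM. Less than 2-fold apart were several abundant ones. Postn was 1578 and 1459 CPM, Col12a1 1731 and 1995 CPM, Tagln 704 and 631 CPM and, among the genes that chose the cells, Col3a1 12873 and 11702 CPM. The collagenase Mmp13 was 50.5 and 246 CPM and its inhibitor Timp1 664 and 1160 CPM.

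Of the remaining lists at 4d 4h, hypoxia genes had 4 of 13 at least 2-fold higher in TOE_4d_4h and 0 lower (median log2 ratio 0.72), against 5.48% and 5.45% of all genes and a median of 0.06, among them Bnip3, a mitophagy receptor, at 22.5 CPM in TO and 72.5 CPM in TOE. Vegfa was 67.6 and 122 CPM. Genes of TGF-beta and BMP signalling had 5 of 24 higher and 2 lower (median 0.24), matricellular genes 4 of 18 higher and 3 lower (median −0.20), and contractile genes 2 of 16 each way (median −0.13). Immediate-early genes had 0 of 22 higher and 4 lower (median −0.44), heat shock genes 0 of 11 higher and 1 lower (median −0.63), and mechanosensing genes 0 of 12 higher and 2 lower (median −0.36). Hsph1, a co-chaperone of Hsp70, was 2261 and 935 CPM.

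**Figure D4:**
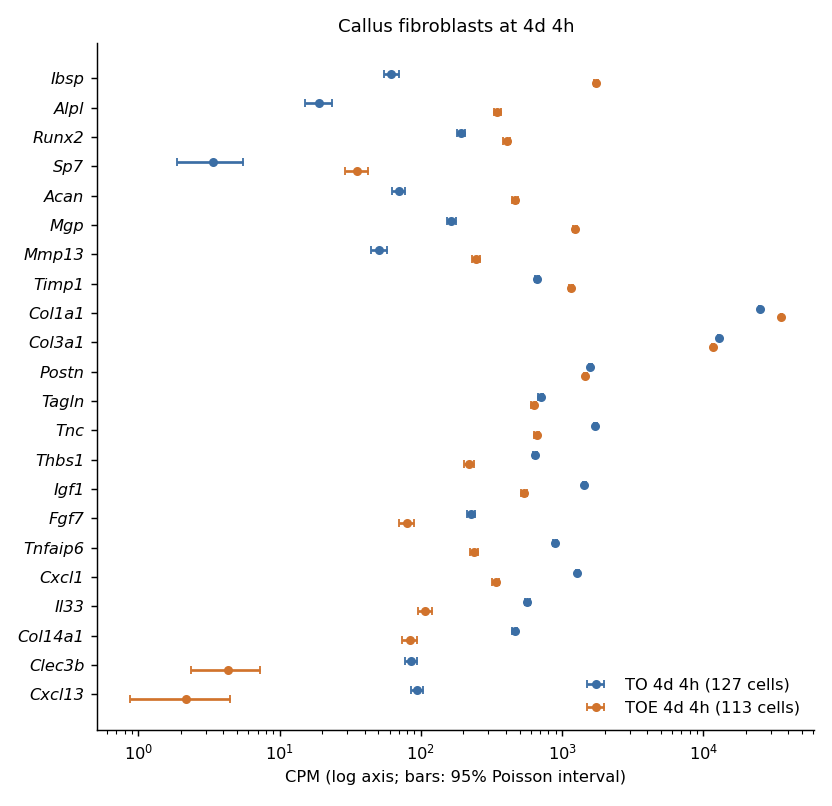
Levels of 22 genes in callus fibroblasts of TO_4d_4h (blue, 127 cells) and TOE_4d_4h (orange, 113 cells), in CPM on a log axis with 95% Poisson intervals of counting error. Bone genes at the top lie to the right in TOE (Ibsp 61.7 and 1735 CPM), Col1a1, Col3a1, Postn and Tagln lie close together, and Igf1, Il33, Col14a1 and Cxcl13 lie to the left.

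Since the make-up of the libraries differed, levels were also read within sub-cluster 1, which held 109 cells of TO_4d_4h and 27 cells of TOE_4d_4h. There Igf1 was 1551 CPM in TO and 1591 CPM in TOE, Il33 581 and 364 CPM, Cxcl1 1314 and 957 CPM, and Fgf7 249 and 183 CPM. Igf1 and Col14a1 are leading genes of the sub-cluster, so that like levels of Igf1 in its TO and TOE cells were partly set by how it was formed. At a finer clustering (Leiden resolution 1) the sub-cluster that held most of TO_4d_4h kept 89 of its cells but 5 of TOE_4d_4h, so these values depend on where the sub-cluster ends. Over whole lists, the median log2 ratio within the sub-cluster was −0.09 for the 6 measured of 13 bone formation genes, 0.07 for 15 cytokines and chemokines and 0.36 for 22 growth factors and receptors, against 0.01 over 10910 genes, where over all callus fibroblasts these medians were 2.93, −0.87 and −0.44. Hypoxia genes had 0.68 within the sub-cluster, and contractile genes −1.04. Tnc (1823 and 728 CPM), Inhba (60.2 and 343 CPM) and Mgp (177 and 2876 CPM) were about as far apart as over all cells or farther. Clec3b (94.5 and 16.2 CPM) and Cxcl13 (100 and 4.99 CPM) were less far apart, and still more than 2-fold. Runx2 (184 and 89.8 CPM), Acan (43.1 and 4.99 CPM), Mmp13 (26.6 and 2.49 CPM) and Ccl2 (651 and 1206 CPM) lay the other way round than over all cells, and Tagln was 698 and 299 CPM. Sub-cluster 2 had 0 cells in TO_4d_4h, so that bone genes could not be read within it. Sub-cluster 3 (Ibsp 949 CPM, Alpl 490 CPM, Acan 908 CPM) held 2 cells of TO_4d_4h and 31 of TOE_4d_4h. Sub-cluster 6 (Ibsp 1747 CPM) held 5 cells of TO_4d_4h and 24 of TOE_4d_4h. The part of this make-up in the bone and cartilage ratios was not tested.

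At 2d 4h the pair held 19 cells in TO and 15 in TOE, and 6477 genes had at least 20 UMIs, of which 9.68% were at least 2-fold higher in TOE and 8.06% at least 2-fold lower. Bone formation genes had 0 of 9 higher and 7 of 9 lower (median log2 ratio −1.47 against 0.05 over all genes), and cytokines and chemokines 9 of 12 higher and 0 lower (median 1.85). Both lists thus lay on the opposite side from 4d 4h, and the difference between the pairs was not tested. Immediate-early genes had 9 of 21 higher and 0 lower (median 0.84). Of the erythroid markers 4 of 4 measured were at least 2-fold lower (median −4.03), and their part in these values was not tested.

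Ibsp was 1614 CPM in TO_2d_4h and 230 CPM in TOE_2d_4h, 7.03-fold lower (5.63 to 8.88), or 994 and 147 CPM without the top cell of each library, Alpl 310 and 74.8 CPM, and Runx2 770 and 278 CPM. Ccl2, the monocyte attractant, was 66.2 CPM in TO_2d_4h (8 of 19 cells) and 822 CPM in TOE_2d_4h (14 of 15 cells), though 1 cell held 74.3% of the UMIs in TO and 1 cell 56.5% in TOE, and without them Ccl2 was 18.5 and 391 CPM. Cxcl1 was 108 and 697 CPM, Il6 22.7 and 171 CPM, and Vegfa, the endothelial growth factor, 88.9 and 419 CPM. Mmp13 was 1009 CPM in TO_2d_4h (8 cells) and 29.4 CPM in TOE_2d_4h (5 cells), 34.3-fold lower (19 to 69.2). The other cells kept had Mmp13 at 11.5 CPM in TO_2d_4h and 0.426 CPM in TOE_2d_4h, whose part in this difference was not tested. Cxcl1 in those cells was 146 and 71.9 CPM, opposite to callus fibroblasts.

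With so few cells, single cells carried many of the largest ratios of that pair. In TOE_2d_4h 1 cell held 77.1% of the Prg4 UMIs (lubricin, 3.78 CPM in TO and 700 CPM in TOE), 85.6% of Igf2, 87.5% of Pgf, 78.3% of Cxcl10 and 86.6% of Mgp, whose level without that cell was 290 CPM rather than 2032 CPM. In TO_2d_4h 1 cell held 87.4% of the Cyp7b1 UMIs and 89.1% to 93.3% of those of Hbb, Hbb-b1, Hbb-b2 and Hbb-bs. Spread over more cells were Igfbp3 (1.89 CPM in TO, 142 CPM in TOE, 8 of 15 cells), Col18a1 (7.57 and 131 CPM, 9 cells), Kcnq5 (7.57 and 222 CPM, 9 cells) and Dpt (11.4 and 246 CPM, 6 cells), and on the lower side Pdzd2 (174 and 8.01 CPM) and LOC120096183 (98.4 and 0 CPM, at least 12.3-fold lower).

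Of the 16 contractile genes 9 were highest in TOE_2d_24h and 7 in another library, while 4.64% of the 15100 genes with at least 20 UMIs in callus fibroblasts were highest there. That share over all genes depends on depth, since a gene near 20 UMIs can hardly be highest in the library of most UMIs. It is thus no measure for abundant genes, and nothing is read from it. Among the 9, Smtn (95.1 CPM, and 94.6 CPM in TO_2d_4h) and Des (20.5 CPM, and 18.7 CPM in TOE_2d_4h) led by little. Acta2, the actin of smooth muscle and myofibroblasts, was 393 CPM there, against 55.4 CPM in TO_2d_0h, 119 in TO_2d_4h, 80.4 in TO_4d_4h, 27.9 in TO_4d_24h, 56.1 in TOE_2d_4h, 30.2 in TOE_4d_4h and 112 in TOE_4d_24h. Tagln (transgelin) was 2266 CPM and 324 to 908 CPM in the others, Tpm2 (tropomyosin 2) 1472 and 277 to 915 CPM, and Myl9 (myosin light chain) 453 and 85.6 to 299 CPM. TOE_2d_24h was thus the highest library for each of these genes. It was not for Tpm1 (1329 CPM, and 1481 CPM in TOE_4d_24h), Cald1 (1059 and 1102 CPM) and Mylk (54.7 and 152 CPM), nor for Cnn1, Cnn2, Actn1 and Tagln2.

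Pericytes stood higher still for Acta2, at 736 CPM, and carried Actg2 at 321 CPM against 41.6 CPM in callus fibroblasts and Des (desmin) at 200 against 16.2 CPM. After thinning, Acta2 was seen in 50.1% of the cells of TOE_2d_24h (288 of 355 cells unthinned) and 5.31% to 23.3% of those of the other libraries with at least 10 cells, against 0.375% of B cells. Of 227 cells with Acta2, 211 (93%) also had Tagln, against 58.6% of the cells without Acta2. In TOE_2d_24h, which held 178 of the 227 cells, these shares were nearer to each other, at 96.6% and 72.9%.

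The promoter of Acta2 is shown because actin and other contractile genes are textbook targets of serum response factor, which binds the CArG box. The stretch runs from 250 bases before to 50 bases after the RefSeq start on GRCr8, at chr1:241172454-241172753 on the minus strand, with the matches to a CArG-like motif in capitals. A match was 10 bases that begin with CC, end with GG and hold at most 1 base other than A or T between, read on the strand printed, since the reverse complement of such a match is itself a match.
Acta2: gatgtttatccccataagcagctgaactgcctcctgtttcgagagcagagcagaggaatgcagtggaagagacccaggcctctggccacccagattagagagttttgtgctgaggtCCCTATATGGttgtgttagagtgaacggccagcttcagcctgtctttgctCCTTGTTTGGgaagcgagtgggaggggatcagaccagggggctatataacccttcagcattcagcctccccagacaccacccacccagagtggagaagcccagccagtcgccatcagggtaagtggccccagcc
Of the 16 contractile genes 12 were matched to a RefSeq promoter and 2 held such a match, Acta2 with 2 and Cnn2 with 1, against 9.42% of all 33469 promoters of this length. The other 10 of the 12 had none in this window. Tagln, Myl9, Myh11 and Lmod1 were not matched to a promoter, so they were not scanned. The share of 9.42% counts promoters rather than genes. Cnn2 (calponin 2), unlike Acta2, was at 117 CPM in TOE_2d_24h and 60.7 to 172 CPM in the other libraries.

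Between TOE_2d_24h (355 cells) and TOE_4d_24h (30 cells), which differ in day and in the number of sessions, 13756 genes had at least 20 UMIs over both, of which 15% were at least 2-fold higher at 4d and 11.1% at least 2-fold lower. TOE_4d_24h held 677738 UMIs against 16462678 UMIs, so a gene at that minimum has on average under 1 UMI in it, and nothing is read from these counts over all genes. Immediate-early genes had 0 of 22 higher at 4d and 14 of 22 lower (median log2 ratio −1.17 against 0.08), cytokines and chemokines 2 of 15 higher and 9 of 15 lower (median −1.40), and contractile genes 1 of 16 higher and 7 of 16 lower (median −0.68). Small leucine-rich proteoglycans had 6 of 11 higher and 1 lower (median 1.47). Of 5 erythroid markers 4 were at least 2-fold lower (median −6.14).

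Aspn was 286 CPM in TOE_2d_24h and 1231 CPM in TOE_4d_24h, 4.3-fold apart (3.99 to 4.63), Ogn (osteoglycin) 364 and 1347 CPM, Thbs2 237 and 1020 CPM, and Col12a1 1395 and 3138 CPM. Foxp2, a transcription factor, was 6.44 CPM (40 of 355 cells) and 158 CPM (20 of 30 cells), Ostn (osteocrin, a secreted peptide of bone and muscle) 9.23 and 264 CPM, and Wfdc1 12 and 288 CPM. Igfbp5, which binds insulin-like growth factors, was 31.6 and 893 CPM, with 62.1% of the latter in 1 cell and 354 CPM without it. Clec3b was 1.28 and 42.8 CPM, and Nkain2 0.79 and 76.7 CPM with 69.2% in 1 cell. Ctsg and Prtn3, proteases of neutrophils, were 8.32 and 438 CPM and 2.98 and 199 CPM, with 95.3% and 94.8% in 1 cell.

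Lower at 4d were Atf3, a stress-induced transcription factor, at 1686 and 181 CPM (9.29-fold, 7.78 to 11.2), the small heat shock protein Hspb1 at 1091 and 130 CPM, Thbs1 at 246 and 22.1 CPM and Cxcl1 at 272 and 29.5 CPM. Smpd3 was 94.6 and 1.48 CPM, and Rrad, Tcim and Cyp26b1 were at 0 in TOE_4d_24h, at least 20.2-fold, 13.4-fold and 8.51-fold lower. The haemoglobin genes Hba-a1, Hba-a2, Hbb and Hbb-bs were lower too, Hba-a1 with 365 and 4.43 CPM. The other cells kept moved with several of these genes. In them Hba-a1 was 3475 CPM in TOE_2d_24h and 41.2 CPM in TOE_4d_24h, Atf3 377 and 71.3 CPM, Hspb1 111 and 10.9 CPM, Thbs1 46.6 and 9.85 CPM and Cxcl1 240 and 3.7 CPM, and the part of these shifts in the callus fibroblast values was not tested.

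Within sub-cluster 3, with 16 cells of TOE_2d_24h and 22 of TOE_4d_24h, Hspb1 was 751 and 145 CPM and Atf3 478 and 228 CPM. Tagln was 712 and 875 CPM and Acta2 47.1 and 80.9 CPM there, so these contractile genes were not lower at 4d within the sub-cluster, and Cxcl1 was 27.9 and 32 CPM. The list medians within the sub-cluster were −0.12 for 21 immediate-early genes, 0.34 for 9 small leucine-rich proteoglycans, −0.21 for 7 cytokines and chemokines and 0.39 for 11 contractile genes, against −0.01 over 6878 genes. They were thus nearer to 0 than over all callus fibroblasts, or of the other sign for contractile genes. Bone formation genes had a median of 1.49 there. Among the immediate-early genes Klf2 was 358 and 43.3 CPM and Myc 24.4 and 77.2 CPM, and among the proteoglycans Aspn was 1058 and 1338 CPM and Fmod 333 and 158 CPM. Foxp2 was 59.4 and 183 CPM, Ostn 197 and 309 CPM, Ogn 492 and 1380 CPM, Runx2 335 and 926 CPM and Ibsp 108 and 1517 CPM. Over all callus fibroblasts Ibsp was 2122 and 1722 CPM.

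TO_4d_24h can be read only in its 3 cells. They held Ibsp at 6203 CPM, Spp1 at 5743 CPM and Bglap, which the selection limits, at 1185 CPM, and Igf1 at 6.97 CPM. TOE_4d_24h, the matched library, had Ibsp at 1722 CPM, Spp1 at 1031 CPM and Igf1 at 67.9 CPM. Of the 890 Ibsp UMIs of TO_4d_24h 76.6% came from 1 cell, as did 98.4% of the Spp1 and 94.1% of the Bglap UMIs. This pair shares TOE_4d_24h with the comparison over time.

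The level of COX2 sorted by hour in both arms. COX2, a mitochondrial gene, was 1470 CPM in TO_2d_4h, 1915 in TO_4d_4h, 1735 in TOE_2d_4h and 1869 in TOE_4d_4h, against 4369 to 5023 CPM in the 0 h and 24 h libraries. In the other cells kept COX2 was lower at 4 h too, with 1603 to 2174 CPM at 4 h against 2541 to 5811 CPM. The median share of mitochondrial UMIs per callus fibroblast did not sort fully by hour. At 4 h it was 2.72% in TO_4d_4h and 2.16% to 2.24% in the others. In the 0 h and 24 h libraries it was 2.61% to 3.77%. Jund, an immediate-early gene, was 299 to 368 CPM at 4 h and 351 to 1027 CPM otherwise, so that TOE_4d_24h lay within the range of the 4 h libraries.

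**Figure D5:**
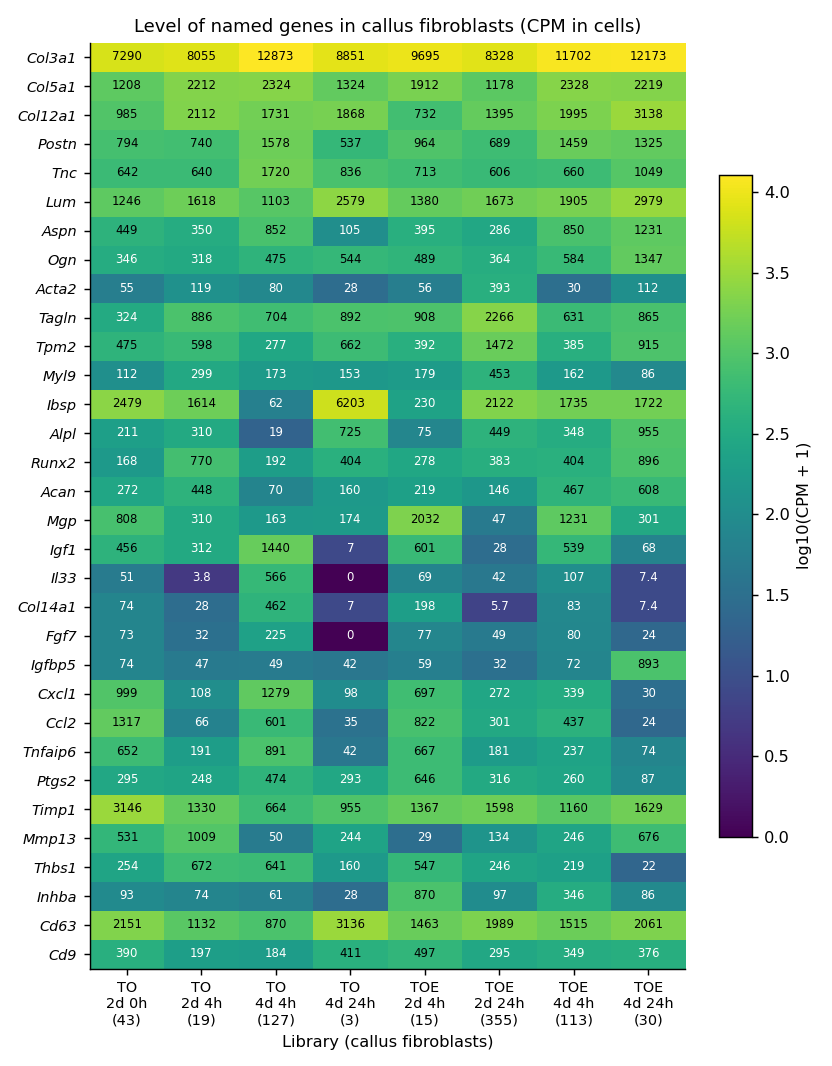
Levels of 32 genes (rows) in callus fibroblasts of the 8 libraries (columns, number of cells in brackets), with the CPM printed in each cell and the colour on a log10(CPM + 1) scale. Col3a1, Col5a1, Col12a1 and Postn are at 537 CPM or more in every library. Acta2, Tagln, Tpm2 and Myl9 peak in TOE_2d_24h (Acta2 393 CPM), Igf1, Il33 and Col14a1 in TO_4d_4h (Igf1 1440 CPM), where Ibsp is lowest (61.7 CPM).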

How the data were processed

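Cells of the osteotomy site were profiled on the 10x Genomics Chromium platform, and 8 of the 9 libraries were analysed. The authors deposited whole-number counts of UMIs per gene and barcode, not normalized, for 41801 genes. The submitters' processing notes name Cell Ranger 9.0.0, R 4.0.3 and Seurat. They name a human and a rat genome build with no role, so no gene coordinates were taken from them.

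Barcodes were filtered, callus fibroblasts selected and UMIs summed per library with python 3.11.15, numpy 2.4.6, scipy 1.17.1 and pandas 2.3.3. The members and gene lists were chosen with earlier results of these data known. Doublets were scored by Scrublet (scanpy 1.11.5, expected doublets 8%) and kept. Its automatic threshold marked 0 cells in 3 libraries, so a score of 0.25 was used instead. Sub-clusters came from the 1500 most variable genes, 20 components, 15 neighbours and Leiden resolution 0.5 (igraph 0.11.9), without integration of libraries. Log2 ratios used a prior of 0.5 UMI. Libraries under 10 callus fibroblasts entered no count of genes. Osteoblasts had at least 50 Bglap UMIs per 10000 and no Col3a1 minimum. Pericytes had at least 3000 UMIs, at least 5 Rgs5 and 0 Cdh5 UMIs. B cells had at least 3000 UMIs, at least 3 Cd79a UMIs and a Ptprc UMI. Intervals were Poisson for CPM, Clopper-Pearson for shares and exact conditional for ratios.

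Named genes were the markers, the 20 genes of highest level and the 20 most raised over other cells, in each comparison the 8 largest ratios each way among genes with at least 50 UMIs and a UMI in at least 20% of cells of the higher library, the highest members of each list and the vesicle genes. Smpd3, COX2 and Jund were followed over libraries after their values were seen. The ratio step was checked on simulated data. The genes of promoters were matched by symbol to RefSeq.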

Additional observations from a re-analysis of the deposited data

How the results depend on the processing

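Leaving out every cell with a Ptprc UMI reduced the callus fibroblasts to 306 and the genes at least 2-fold higher in TOE_4d_24h than in TOE_2d_24h to 1174, and turned the log2 ratio of Acta2 at 2d 4h to 0.34. A prior of 5 UMIs gave 262 genes lower at 2d 4h, and 5078 higher and 243 lower between the 24 h libraries of TOE, where totals are unequal and the prior by construction weighs more in the smaller library. A minimum of 50 UMIs, which tests fewer genes, gave 237 higher and 215 lower for TOE_2d_4h against TO_2d_4h, 349 and 436 for TOE_4d_4h against TO_4d_4h, and 1290 higher between the 24 h libraries. Leiden resolution 1 gave 12 sub-clusters instead of 7, and left 5 instead of 27 cells of TOE_4d_4h with the 89 cells of TO_4d_4h in the sub-cluster that held most of the latter. The other shares and counts stayed within their interval or within 1.5 times, under the other filters of cells, total UMIs, doublets, Col1a1 and Bglap, means of single cells, median scaling, a coarser or reseeded clustering and, added after the data were seen, without sub-cluster 7 or the deepest cell of each library. Of 884 alternative list medians 870 moved by less than 1.5-fold and 14 by more. The sign changed for 24 of 68 list medians, each at most 0.50 in size as reported, among them growth factors and receptors (−0.55 to 0.82) and tendon and synovial genes (−0.98 to 1.19) between the 24 h libraries of TOE. Of 1050 alternative gene ratios 929 stayed within their counting interval, 120 left it and 1, that of Acta2, reversed from a called direction. The sign changed under some alternative for 14 of the 81 gene ratios. The bone formation median stayed between 2.78 and 3.41 at 4d 4h. No paired analysis was possible because each condition had 1 library. Leaving out a replicate was not possible for the same reason, and the pairs with TO_4d_24h were not run for counts of genes.

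Depth limits mostly the libraries of 3 to 30 cells, where 1 cell can set a level. Differences between rats, between suspensions and between conditions cannot be told apart.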
